A study of Mus musculus with 16 samples.

Results

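Collagen chains are modified, folded and trimmed by a small set of enzymes and chaperones, and 10 genes for such proteins were followed here in the liver and white adipose tissue of obese mice. They were chosen by gene symbol, with earlier results of these data known. P4ha1, P4ha2, P4ha3 and P4hb stood for prolyl 4-hydroxylase, and Plod1, Plod2 and Plod3 for the lysyl hydroxylases. Serpinh1 stood for the collagen chaperone, and Bmp1 and Pcolce for removal of the C-terminal propeptide. All 10 were present among the 22322 genes of both deposited tables. The animals were DIO (diet-induced obese) mice, whose vehicle groups are labelled HFD, and the labels name no strain, sex or age. They were injected intraperitoneally every 2 days with vehicle or with halofuginone at 100 μg/kg (labelled H100), and tissue was taken after 8 weeks. There were 5 liver libraries from each treatment and 3 white adipose libraries from each, and the labels do not name the fat depot. All 4 groups came from DIO mice, and no lean group was analysed here.

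Procollagen is made in the endoplasmic reticulum (ER). Prolyl 4-hydroxylase, a tetramer of catalytic alpha subunits and the protein disulfide isomerase encoded by P4hb, converts prolines to 4-hydroxyproline, without which the triple helix is not stable at body temperature. Lysyl hydroxylases make the hydroxylysines used for glycosylation and for crosslinks, HSP47 (Serpinh1) binds the folded helix on its way to the Golgi, and BMP1 cuts off the C-terminal propeptide outside the cell with the help of the enhancer PCOLCE. In liver the main source of fibrillar collagen is the hepatic stellate cell, and in fat it is the fibroblast-like stromal cell. Halofuginone inhibits prolyl-tRNA synthetase and is known as an inhibitor of collagen production.

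Libraries held 20309956 to 31980683 counts in liver and 17070614 to 21387799 in fat. The hepatocyte markers Alb, Apoa1, Ttr, Serpina1c and Cyp2e1 summed to between 119052 and 131100 CPM (counts divided by the TMM-adjusted library size, times a constant) in vehicle liver, and Adipoq, Plin1 and Lep were at 3 counts or fewer in every liver library. In vehicle fat the 5 adipocyte markers summed to between 4246 and 9076 CPM. On the first principal component of liver (56.2% of the variance), halofuginone replicate 1 scored −23.3, beside the vehicle livers (−36.0 to −28.3), and the other 4 treated livers scored 32.4 to 58.0. In liver the counts of called collagen genes are therefore given with and without that library, and the markers and ratios with all livers.

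Levels without the drug were compared per gene length, as FPKM (fragments scaled by transcript length and library size), so that genes can be set against each other. In vehicle liver P4hb was highest at a median of 441 FPKM, with a range from 398 to 491. Bmp1 (25.6 FPKM) and Plod1 (19.1 FPKM) followed with overlapping ranges, then Serpinh1 (11.2 FPKM), Plod3 (8.14 FPKM) and P4ha1 (6.98 FPKM), each overlapping the next. P4ha2 (3.87 FPKM), Pcolce (2.89 FPKM) and Plod2 (0.26 FPKM) were lower, and each of these ranges lay apart from that of the next gene in the order. In vehicle fat P4hb (248.8 FPKM) and Serpinh1 (199 FPKM) overlapped at the top. Plod1 (57.4 FPKM), Plod3 (52.1 FPKM), Pcolce (46.5 FPKM) and P4ha1 (28.4 FPKM) followed, each overlapping the next. Bmp1 (21.0 FPKM) lay apart from both its neighbours, and P4ha2 (11.6 FPKM) overlapped Plod2 (7.14 FPKM). P4ha3, the third alpha subunit, was nearly absent: the counts were 0, 0, 0, 0 and 1 in vehicle liver, 1, 2, 0, 0 and 0 in treated liver, 3, 1 and 23 in vehicle fat, and 2, 3 and 5 in treated fat. It did not pass the filter on low counts in either tissue, so 9 of the 10 genes were tested in each.

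**Figure D1:**
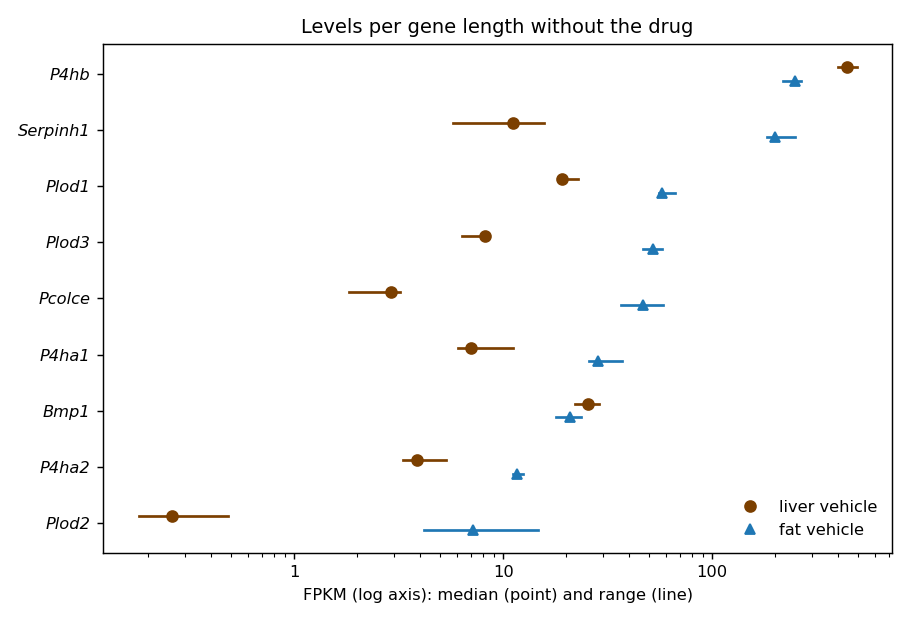
Levels of 9 of the genes per gene length in vehicle libraries of liver (circles, 5 libraries) and fat (triangles, 3 libraries): median and range of deposited FPKM on a log axis. P4hb has the highest median in both tissues, its range overlapping that of Serpinh1 in fat, and Serpinh1 sits at 11.2 FPKM in liver and 199 FPKM in fat.

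The vehicle groups of the 2 tissues were then compared in 1 edgeR fit of all 16 libraries. Serpinh1, Pcolce and Plod2 were the genes with much more transcript in fat: the log2 difference was 3.12 for Serpinh1 (SE 0.27, edgeR adjusted p 4.24e-08), 2.90 for Pcolce (SE 0.23, edgeR adjusted p 1.26e-08) and 3.80 for Plod2 (SE 0.44, edgeR adjusted p 9.9e-07). Plod3 (1.499, SE 0.12) and P4ha1 (0.73, SE 0.22) were also higher in fat, whereas P4hb (−2.05, SE 0.21) and Bmp1 (−1.46, SE 0.21) were higher in liver. P4hb is also a general disulfide isomerase and a subunit of the microsomal triglyceride transfer protein, and liver secretes large amounts of protein. P4ha2 (0.29, SE 0.18) and Plod1 (0.32, SE 0.16) were not called. That made 7 of 9 called, where 72.3% of the 14853 genes tested were called between these tissues, so the count itself is close to that of genes in general. With library size alone in place of TMM the median difference of all genes moved by 1.19, so the sizes given here depend on the scaling. Over 5 alternative settings P4hb ran from −2.07 to −0.86 and Plod3 from 1.48 to 2.69. With library size alone P4ha2 (1.48) and Plod1 (1.51) were called and Bmp1 (−0.27, edgeR adjusted p 0.182) was not. P4ha1 was not called without vehicle fat 3 (0.54, edgeR adjusted p 0.0593), P4ha2 was called without vehicle liver 3 (0.43, edgeR adjusted p 0.0265), and Plod1 was called without halofuginone liver 1 (0.32, edgeR adjusted p 0.0304).

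In liver 5 genes were called lower under halofuginone and 0 were called higher. Those called were the chaperone, 1 catalytic subunit of prolyl 4-hydroxylase, 1 lysyl hydroxylase and both of the propeptide-processing genes among the members. Serpinh1 was at 39.5% of its vehicle level, P4ha1 at 47.6%, Plod2 at 37.4%, Pcolce at 59.7% and Bmp1 at 64.5%. P4hb, Plod1, Plod3 and P4ha2 were not called. Thus 5 of 9 tested genes were called, all 5 lower, where 23.2% of the 12311 genes tested in liver were called and 10.5% were called lower. Because the genes were chosen with earlier results of these data known, this count is a description. The median log2 fold change of the 9 genes was −0.63, against 0.02 over all genes tested. Without halofuginone replicate 1, 6 of 9 were called (5 lower, 1 higher), where 42.8% of all genes were. Without any 1 of the other 9 livers the count was 2 to 4, and it was 2 or 3 without vehicle liver 1, 2, 4 or 5 or treated liver 2, 3 or 5. The calls of Serpinh1 and P4ha1 were kept in all 10 of these fits, that of Pcolce in 6, that of Bmp1 in 4 and that of Plod2 in 1.

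**Figure D2:**
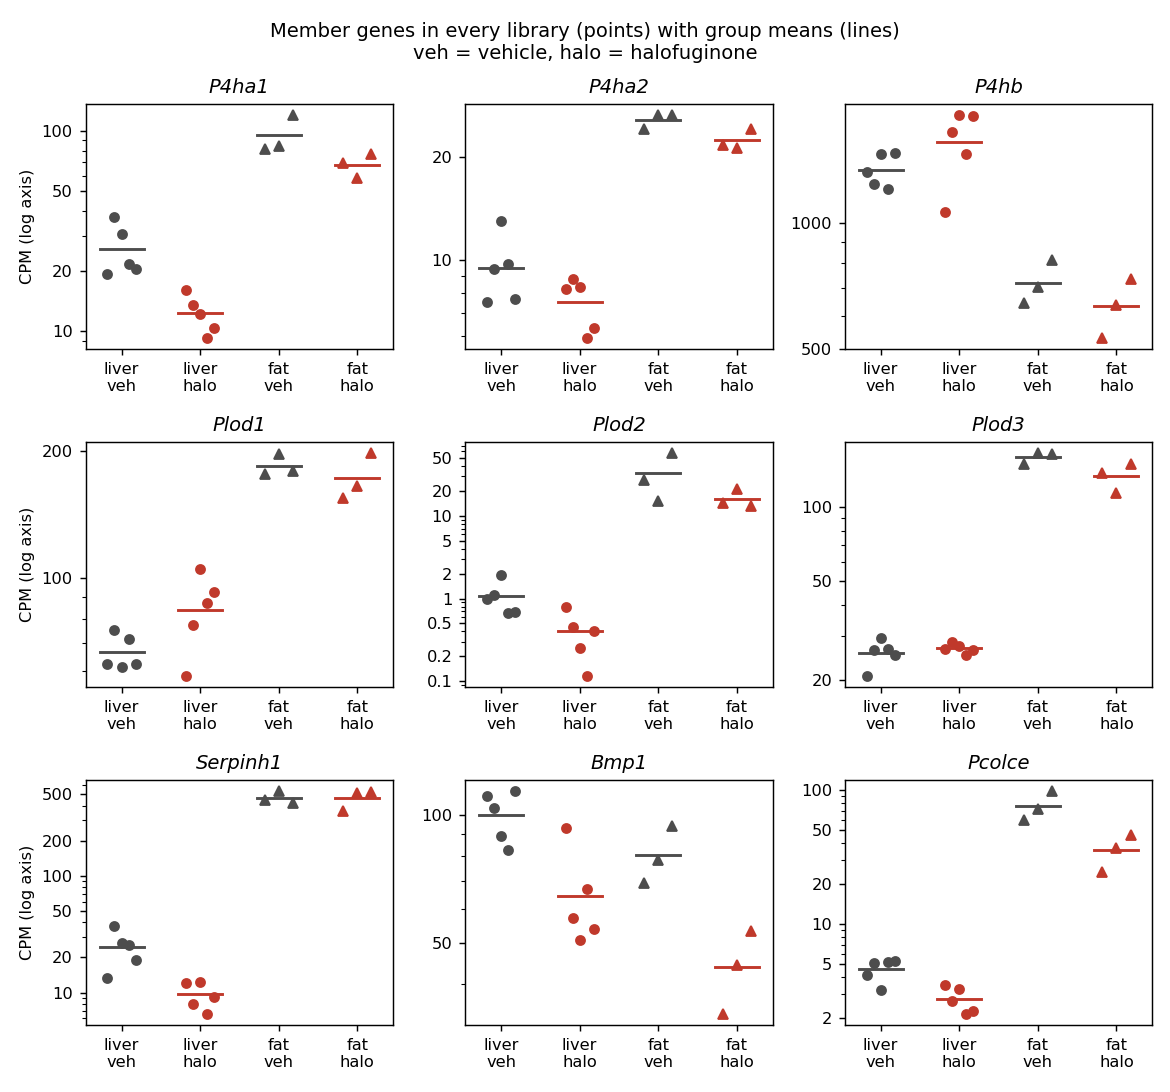
CPM of 9 genes in each library (points) with the group mean (lines), on log axes with a range of their own in each panel; circles are liver (5 and 5 libraries), triangles fat (3 and 3), grey vehicle and red halofuginone. In liver every treated library is below every vehicle library for P4ha1 and Serpinh1; in fat this is so for P4ha1, Bmp1 and Pcolce.

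Of the prolyl 4-hydroxylase genes, P4ha1 was called in liver and P4ha2 and P4hb were not. P4ha1 (ENSMUSG00000019916), the major alpha subunit in most tissues, was at 19.4, 37.4, 30.8, 21.8 and 20.4 CPM in vehicle replicates 1 to 5 and at 16.2, 13.6, 12.2, 9.30 and 10.4 CPM in halofuginone replicates 1 to 5. All treated livers lay below all vehicle livers, with replicate 1 the highest of the treated. The mean went from 26.0 ± 7.81 CPM to 12.4 ± 2.71 CPM (SD, n = 5 in both), which is −1.07 on the log2 scale (SE 0.21, edgeR adjusted p 0.00868). P4ha2 (ENSMUSG00000018906), the paralogous alpha subunit, ranged from 7.56 to 13.004 CPM in vehicle and from 5.94 to 8.80 CPM under halofuginone, and the groups overlapped (−0.33, SE 0.17, edgeR adjusted p 0.176). P4hb (ENSMUSG00000025130) was at 1327, 1239, 1466, 1205 and 1472 CPM in vehicle and 1064, 1651, 1818, 1468 and 1805 CPM under halofuginone. Its replicate 1 was below every vehicle liver and 3 treated livers were above every vehicle liver (0.22, SE 0.17, edgeR adjusted p 0.353). Without halofuginone replicate 1 the log2 fold change of P4hb was 0.31, with an edgeR adjusted p of 0.0747.

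The promoters of these subunits and of Serpinh1 are shown because P4ha1 and Serpinh1 fell together in liver while P4ha2 and P4hb were not called. Sequences are from RefSeq on GRCm38.p6, 250 bases before to 50 after the start of the gene, and each is written 5′ to 3′ on the strand of its gene. P4ha1 is at chr10:59323046-59323345 (+ strand), P4ha2 at chr11:54100674-54100973 (+ strand), P4hb at chr11:120573204-120573503 (− strand) and Serpinh1 at chr7:99353190-99353489 (− strand). Capitals mark ACGTG on either strand, the core of the hypoxia response element bound by HIF, which is known to drive P4ha1 and P4ha2.
P4ha1: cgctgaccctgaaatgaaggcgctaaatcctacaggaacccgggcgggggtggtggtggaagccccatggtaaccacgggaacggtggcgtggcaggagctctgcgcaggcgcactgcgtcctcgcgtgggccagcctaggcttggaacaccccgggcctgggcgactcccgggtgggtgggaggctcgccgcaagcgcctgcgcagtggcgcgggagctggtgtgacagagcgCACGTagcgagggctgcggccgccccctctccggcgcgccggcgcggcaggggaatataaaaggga
P4ha2: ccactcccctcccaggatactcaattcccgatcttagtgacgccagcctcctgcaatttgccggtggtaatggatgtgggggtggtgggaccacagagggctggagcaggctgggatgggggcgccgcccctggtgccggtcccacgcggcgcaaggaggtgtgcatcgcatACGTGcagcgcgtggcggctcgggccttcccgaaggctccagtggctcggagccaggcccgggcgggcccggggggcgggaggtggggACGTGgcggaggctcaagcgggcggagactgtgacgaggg
P4hb: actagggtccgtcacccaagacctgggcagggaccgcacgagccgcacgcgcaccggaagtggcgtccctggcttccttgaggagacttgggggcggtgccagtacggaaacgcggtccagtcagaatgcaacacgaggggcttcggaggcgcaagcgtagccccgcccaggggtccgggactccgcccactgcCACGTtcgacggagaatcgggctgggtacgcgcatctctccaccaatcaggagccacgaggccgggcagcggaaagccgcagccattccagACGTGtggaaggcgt
Serpinh1: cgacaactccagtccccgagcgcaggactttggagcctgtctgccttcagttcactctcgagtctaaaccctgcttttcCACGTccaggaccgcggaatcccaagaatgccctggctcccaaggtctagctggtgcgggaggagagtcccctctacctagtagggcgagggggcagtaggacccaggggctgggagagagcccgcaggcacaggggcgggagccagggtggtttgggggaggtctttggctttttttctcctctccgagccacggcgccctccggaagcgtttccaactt

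The ACGTG core stood in the promoters of 5 of the 8 genes found in the table (P4ha1, P4ha2, P4hb, Plod3 and Serpinh1), and 19.6% of all 32851 promoters of this length hold it. It was present in P4ha1 and Serpinh1, which were called lower in liver, and in P4ha2, P4hb and Plod3, which were not called. Whether it bears on the changes in liver was not tested. In P4ha1 it lay 16 bases and in Serpinh1 171 bases before the start site, and P4ha2 and P4hb held 2 each. The Sp1 box GGGCGG stood in 7 of 8 (35.7% of all promoters), CCAAT in 2 of 8 (37.4%) and GAANNTTC, 2 units of a heat shock element, in 1 of 8 (7.86%). The amino acid response core TGATGNAAN (3.95% of all promoters) and the ER stress response element (0.119%) were not found in these windows. Both strands were searched, and no marked ACGTG overlapped another of these motifs. The 4 promoters printed were 62.3 to 70.3% G and C, above the median of 52.7% over all promoters. A match describes letters and not a bound site. Plod2 and Bmp1 had no entry.

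Serpinh1 (ENSMUSG00000070436) encodes HSP47, a chaperone for procollagen. In liver it was at 13.3, 37.5, 26.6, 25.5 and 19.2 CPM in vehicle and 12.2, 8.01, 12.3, 6.52 and 9.16 CPM under halofuginone. The groups did not overlap in CPM, but vehicle replicate 1 lay close above the highest treated library. In FPKM the groups overlapped, at 5.73 to 15.7 in vehicle and 2.93 to 6.63 under halofuginone. The mean went from 24.4 ± 9.07 CPM to 9.64 ± 2.56 CPM (SD, n = 5 in both), which is −1.34 on the log2 scale (SE 0.26, edgeR adjusted p 0.00918). Non-overlapping groups in CPM with lower values under the drug were found for 2 of the 9 genes, P4ha1 and Serpinh1. The same held for 6.55% of all genes tested. These 2 calls were kept in each of the 10 fits that left out 1 liver, with log2 fold changes of −1.21 to −0.92 for P4ha1 and −1.496 to −1.147 for Serpinh1.

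Bmp1 and Pcolce, the 2 members for removal of the C-terminal propeptide, were lower in liver. Of 3 further propeptide-processing genes tested there, 1 had a log2 fold change above 0 and 2 below. The 1 above was Pcolce2 (0.44, SE 0.32, edgeR adjusted p 0.326). Bmp1 (ENSMUSG00000022098), the procollagen C-proteinase, was at 111, 103, 89.2, 82.6 and 113 CPM in vehicle and 93.0, 57.4, 50.9, 66.7 and 54.0 CPM under halofuginone. Replicate 1 lay inside the vehicle range and the other 4 treated livers below it (log2 fold change −0.63, SE 0.17, edgeR adjusted p 0.0234). Pcolce (ENSMUSG00000029718), the enhancer of that proteinase, was at 4.16, 5.11, 3.22, 5.23 and 5.31 CPM in vehicle and 3.53, 2.65, 3.26, 2.12 and 2.23 CPM under halofuginone, with 3 of 5 treated livers below the vehicle range (−0.74, SE 0.19, edgeR adjusted p 0.0218). Bmp1 was no longer called when vehicle liver 1, 2 or 5 was omitted, nor when treated liver 2, 3 or 5 was (edgeR adjusted p 0.0501 to 0.0637). Pcolce was no longer called when vehicle liver 2, 4 or 5 or treated liver 5 was omitted (edgeR adjusted p 0.0502 to 0.0568). Without halofuginone replicate 1 both were called, with log2 fold changes of −0.82 and −0.86.

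Of the lysyl hydroxylases, Plod2 was called in liver and Plod1 and Plod3 were not. Plod2 (ENSMUSG00000032374), which hydroxylates lysines of the telopeptides and so sets the type of crosslink, was scarce: vehicle livers held 25, 22, 41, 18 and 21 counts and treated livers 16, 12, 7, 3 and 11. In CPM 4 of 5 treated livers were below the vehicle range, and replicate 1 was inside it (log2 fold change −1.42, SE 0.44, edgeR adjusted p 0.0404). Plod1 (ENSMUSG00000019055), which acts on lysines of the helix, was at 62.5, 75.2, 61.5, 71.5 and 62.6 CPM in vehicle and 58.5, 77.3, 105, 87.2 and 92.4 CPM under halofuginone. Its 4 libraries other than replicate 1 lay above every vehicle liver, and replicate 1 lay below them all (0.33, SE 0.14, edgeR adjusted p 0.106). Plod3 (ENSMUSG00000004846), which also glycosylates hydroxylysine, was between 20.7 and 29.5 CPM in vehicle and between 25.2 and 28.4 CPM under halofuginone (0.07, SE 0.10, edgeR adjusted p 0.646).

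Replicate 1 weighed on both Plod1 and Plod2. Without it Plod1 was called higher (0.42, edgeR adjusted p 0.00785) and Plod2 lower (−1.79, edgeR adjusted p 0.00711). In the 9 fits that left out any other liver, Plod2 was not called (edgeR adjusted p 0.0505 to 0.1004). Library size alone shifted the median of all liver genes by 0.16 and changed the calls over all genes from 1558 higher and 1292 lower to 2789 and 838; under it Plod1 was called higher (0.50, edgeR adjusted p 0.0426) and Pcolce was not called (−0.58, edgeR adjusted p 0.0557).

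**Figure D3:**
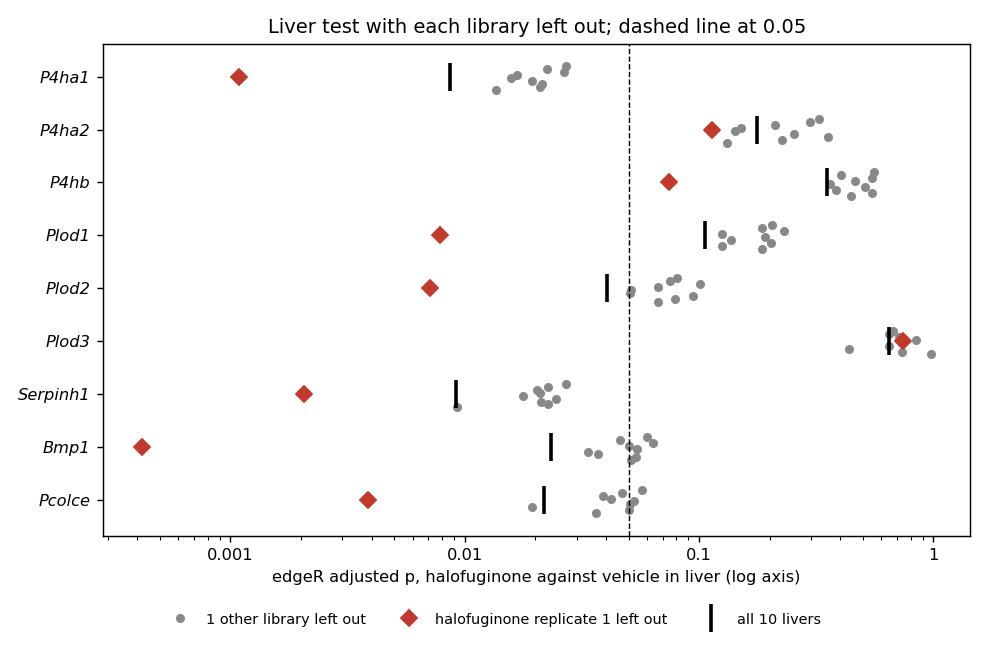
Adjusted p of the liver test for each gene with all 10 livers (black bars) and with each liver left out (points; red diamonds, halofuginone replicate 1), on a log axis with a line at 0.05. P4ha1 and Serpinh1 stay left of the line in every fit, and Bmp1, Pcolce and Plod2 cross it.

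Of 9 markers of the cells that make collagen, 3 were called lower in liver. Of all genes tested there, 10.5% were called lower and 23.2% in either direction. All 9 stellate cell or fibroblast markers tested had log2 fold changes below 0, with a median of −0.33. Col14a1 (−0.75), Pdgfrb (−0.64) and Reln (−0.56) were called, and the stellate marker Lrat was at −0.18, Des at −0.05 and Pdgfra at −0.05. Their summed level was 311 to 421 CPM in vehicle and 226 to 354 CPM under halofuginone, which overlap, and 0 of the 9 were at or under 3 counts in every library. Of the 5 hepatocyte markers 1 was called, Ttr, lower (−1.17). Alb (−0.86), which makes up most of their sum, Apoa1 (−1.12) and Cyp2e1 (−0.99) were not called, and Serpina1c was at 0.02. Their sum was 39694 to 112160 CPM in treated liver, below the vehicle range given above. Of 2 adipocyte markers tested in liver both were called lower, by very different amounts. Cfd went from 13.8 to 0.02 CPM (log2 fold change −8.92), and Lipe was at −0.40. Of 4 endothelial markers 1 was called higher and 2 lower. Macrophage, mesothelial, cholangiocyte and lymphocyte markers had 0 called. Markers of skeletal muscle, epididymis and exocrine pancreas were under the filter in liver. The part of these shifts in the results above was not tested. In bulk tissue fewer cells of a type and less RNA per cell cannot be told apart.

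The rest of the collagen pathway gives the setting for these changes. Of 25 further genes for collagen modification, export and trimming, 22 were tested in liver, and 2 were called higher and 2 lower (median log2 fold change −0.18), where 23.2% of all genes were called. DESeq2 called 2 higher and 5 lower of the 22, and limma on FPKM 2 higher and 1 lower of the 13 it tested. P3h1, a prolyl 3-hydroxylase, went from 10.3 ± 1.00 to 17.6 ± 4.75 CPM (0.78, SE 0.18), and Sec23a, a coat protein of the vesicles that carry procollagen, from 97.8 ± 10.8 to 143 ± 28.8 CPM (0.55, SE 0.15). Sparc, a collagen-binding matrix protein, went from 51.7 ± 8.99 to 34.7 ± 2.13 CPM (−0.58, SE 0.12), and Adamts2, the procollagen N-proteinase, from 5.46 ± 1.36 to 2.91 ± 0.788 CPM (−0.91, SE 0.23, SD and n = 5 throughout). Without halofuginone replicate 1, a fit chosen after seeing the data, 10 of these genes were called, 5 higher and 5 lower, where 42.8% of all genes were. The substrates fell: 4 of 5 fibrillar chains were called lower, with a median log2 fold change of −1.12, and Col1a1 at −1.77 and Col3a1 at −1.71. Without halofuginone replicate 1 all 5 chains were called. Of 7 other ER folding genes (Pdia3, Pdia4, Pdia6, Hspa5, Hsp90b1, Calr and Canx) edgeR called 0 in liver, with or without halofuginone replicate 1. With all livers 0 had an unadjusted p under 0.05, and DESeq2 and limma also called 0 (median −0.20).

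In fat the same genes were compared between 3 vehicle and 3 halofuginone libraries. Pcolce was at 47.0%, Plod2 at 49.0% and Bmp1 at 54.7% of the vehicle level, and Serpinh1 was at 99.8%. Of 4 further propeptide-processing genes tested in fat, 2 had log2 fold changes above 0 and 2 below. Tll1 was at 0.63 (edgeR adjusted p 0.469) and Pcolce2 at −0.95 (edgeR adjusted p 0.395). EdgeR called 0 of 9, where 0.0% of the 14030 genes tested in fat were called. An unadjusted p under 0.05 was found for 2 of the 9, Bmp1 and Pcolce, both lower, and for 7.91% of all genes in that direction. DESeq2 called these 2 genes (adjusted p 0.0128 for Bmp1 and 0.0222 for Pcolce), where it called 5.15% of all genes. So did edgeR in 1 fit of all 16 libraries, where it called 2.25% of all genes, and limma on FPKM called 0.

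Bmp1 was at 69.0, 78.3 and 94.1 CPM in vehicle fat and at 34.0, 44.4 and 53.4 CPM in treated fat (log2 fold change −0.87, SE 0.21, edgeR adjusted p 0.2001). Pcolce was at 59.4, 72.1 and 97.9 CPM in vehicle and at 24.3, 36.9 and 46.4 CPM under halofuginone (−1.09, SE 0.29, edgeR adjusted p 0.218). For both, every treated library was below every vehicle library. P4ha1 also did not overlap, at 81.1, 83.9 and 121 CPM against 69.2, 58.2 and 76.7 CPM, with a smaller difference (−0.49, SE 0.21, edgeR adjusted p 0.381). These 3 of 9 genes with lower, non-overlapping values stand against 10.4% of all genes tested. Serpinh1 was at 445, 532 and 421 CPM in vehicle and 363, 510.1 and 523 CPM under halofuginone, so that the groups overlapped almost fully (−0.0023, SE 0.20, edgeR adjusted p 0.998).

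The hydroxylase genes other than P4ha1 overlapped between the groups in fat. Plod2 was at 26.7, 15.1 and 57.4 CPM in vehicle and 14.4, 21.1 and 13.05 CPM under halofuginone (−1.03, SE 0.48, edgeR adjusted p 0.408), and without vehicle fat 3 its difference was −0.37. P4ha2 (−0.20), P4hb (−0.18), Plod1 (−0.09) and Plod3 (−0.26) had standard errors of 0.14 to 0.19. All 9 genes tested in fat had a log2 fold change below 0, with a median of −0.26 against 0.01 over all genes.

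**Figure D4:**
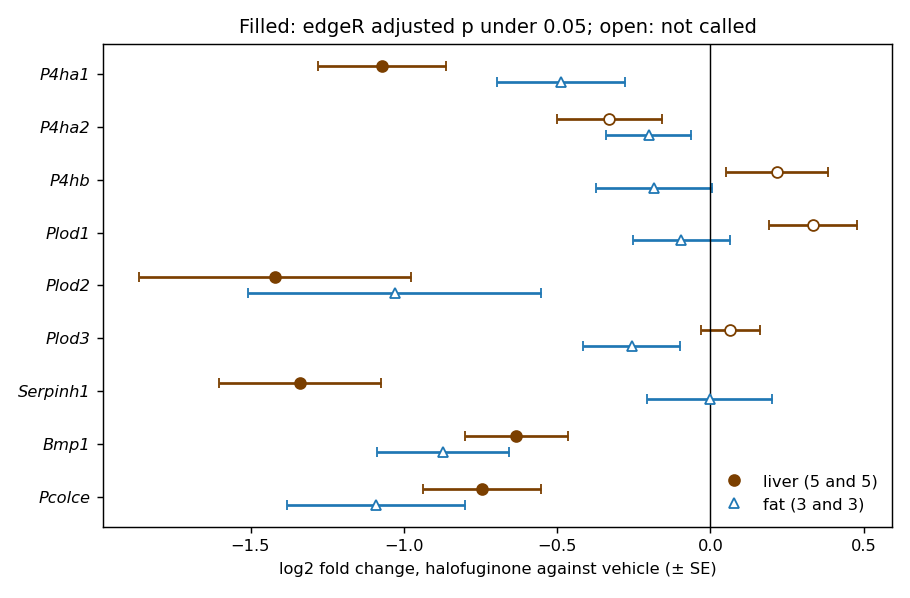
Log2 fold change of halofuginone against vehicle with its SE for 9 genes in liver (circles, 5 and 5 libraries) and fat (triangles, 3 and 3); filled symbols have an edgeR adjusted p under 0.05. The liver values span −1.42 to 0.33, and Serpinh1 is at −1.34 in liver and −0.0023 in fat.

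The substrates had lower values in fat as well. For all 5 fibrillar chains the treated and vehicle libraries did not overlap, with a median log2 fold change of −1.22. Lower, non-overlapping values were found for 10.4% of all genes tested. EdgeR called 0 of the 5, with 5 at an unadjusted p under 0.05, DESeq2 called 5 and limma 0. Over the 14030 genes tested, 1110 (7.91%) were lower and 771 higher at an unadjusted p under 0.05, and DESeq2 called 5.15%. Of the 25 further pathway genes, 23 were tested and edgeR called 0, with 2 higher and 4 lower at an unadjusted p under 0.05. DESeq2 called 1 higher and 1 lower there and limma 0. Sparc was at 4629 ± 1334 and 2115 ± 251 CPM (SD, n = 3 each, edgeR adjusted p 0.188). Creb3l1, a transcription factor for collagen and secretory genes, was at 37.1 ± 6.22 and 55.7 ± 4.75 CPM (edgeR adjusted p 0.253). P3h2 was also higher in fat (log2 fold change 0.79, edgeR adjusted p 0.292). In liver Creb3l1 had the opposite sign (−0.81, edgeR adjusted p 0.0533). The 7 ER folding genes had a median of −0.16, with 0 called by edgeR, DESeq2 or limma and 0 at an unadjusted p under 0.05. Macrophage markers had lower values too: the 5 markers summed to 3994 to 8681 CPM in vehicle fat and 2696 to 2994 CPM in treated fat, with 4 of 4 tested lower at an unadjusted p under 0.05 and Clec4f at 3 counts or fewer throughout. The summed stellate or fibroblast markers overlapped, at 1801 to 2560 and 1751 to 2389 CPM. Dcn (log2 fold change 0.13) made up most of that sum, with means of 1557 and 1702 CPM. Of 8 such markers tested, 6 had log2 fold changes below 0 and 2 above (median −0.24). Lum (−0.98) was the 1 with an unadjusted p under 0.05. Of 4 skeletal muscle markers (median log2 fold change 0.13), Acta1 was lower in every treated than in every vehicle fat (118 ± 41.9 and 48.9 ± 4.57 CPM, SD, n = 3), while Ckm (0.28), Mylpf (0.32) and Myh4 (−0.03) overlapped. The summed adipocyte and endothelial markers overlapped between vehicle and treated fat. Of 5 adipocyte markers 2 had log2 fold changes above 0 and 3 below, with Cfd at 1.88 (edgeR adjusted p 0.159). EdgeR called 0 genes of any marker list in fat. The part of these markers in the fat results was not tested.

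The log2 fold change in liver was subtracted from that in fat, gene by gene, to ask whether the tissues responded differently. EdgeR called 0 of 9 genes, where 0.949% of the 14853 genes were called, and 1 gene, Serpinh1, had an unadjusted p under 0.05, as did 15.7% of all genes. The effect on Serpinh1 was 1.31 higher in fat on the log2 scale (SE 0.39, edgeR adjusted p 0.114). It was called by DESeq2 (1.34, adjusted p 0.0329), which called 4.63% of all genes, and by edgeR without halofuginone liver 1 (1.40, adjusted p 0.0462), which then called 7.07%. Over the 16 fits that left out 1 library the adjusted p ran from 0.0462 to 0.212. The other 8 genes had edgeR adjusted p-values from 0.373 to 0.9004, with differences between −0.45 (Plod1) and 0.58 (P4ha1). Bmp1 (−0.25, SE 0.28) and Pcolce (−0.36, SE 0.33), lower in both tissues by their fold changes, were not separated by this test.

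Ratios within a library do not depend on scaling between libraries, and 4 were computed in each tissue from FPKM. In liver the ratio of P4ha1 to P4ha2 was 1.84, 2.89, 1.72, 1.45 and 1.89 in vehicle and 1.37, 1.04, 0.969, 0.915 and 0.874 under halofuginone. All treated livers were below all vehicle livers, a difference of −0.90 on the log2 scale. The exact permutation test (two-sided) gave p = 0.00794, the smallest that 5 against 5 allows, and 0.0635 after adjustment over the 8 ratio tests, which does not pass 0.05. As a share of the 3 alpha subunits, P4ha1 was 65.3 ± 5.56% of FPKM in vehicle liver and 50.5 ± 4.37% in treated liver (SD, n = 5), and 71.5 ± 3.33% and 68.4 ± 2.26% in fat (SD, n = 3). In fat the ratio was 2.31, 2.30 and 3.20 against 2.38, 1.94 and 2.26 (exact permutation p = 0.4, n = 3), where 3 against 3 cannot go below 0.1.

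The ratio of Col1a1, the main chain of type I collagen, to its chaperone Serpinh1 separated the groups in fat. It was 0.319, 0.301 and 0.641 in vehicle and 0.195, 0.156 and 0.1702 in treated fat, a difference of −1.19 (exact permutation p = 0.1, 0.206 adjusted, n = 3 each). In liver, where Col1a1 and Serpinh1 both fell, the ratio overlapped, at 0.0786 to 0.177 and 0.0739 to 0.119 (−0.47, exact permutation p = 0.103, 0.206 adjusted, n = 5). P4hb against Hspa5, the main ER chaperone of the HSP70 family, was 0.70 higher in treated liver on the log2 scale (exact permutation p = 0.0476, 0.190 adjusted, n = 5). Plod3 against Plod1 differed by −0.24 in liver and −0.15 in fat (exact permutation p = 0.151 and 0.2).

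**Figure D5:**
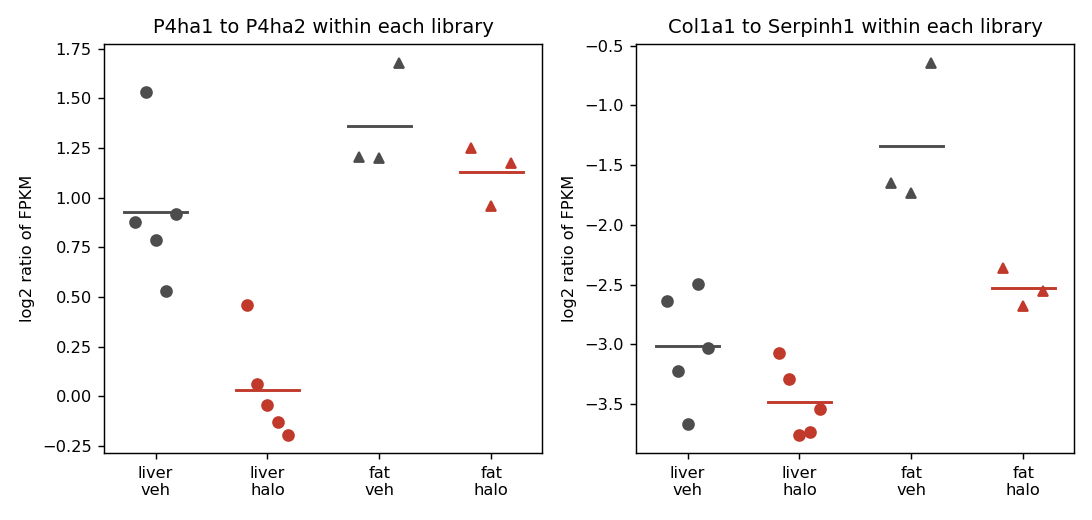
Log2 ratio of FPKM of P4ha1 to P4ha2 (left) and Col1a1 to Serpinh1 (right) in each library (points) with group means (lines); circles are liver, triangles fat, grey vehicle and red halofuginone. The P4ha1 to P4ha2 ratio does not overlap between the groups in liver, and the Col1a1 to Serpinh1 ratio does not overlap in fat.

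The genes most like Serpinh1 were found by the root mean square difference of log2 CPM, each gene taken relative to its vehicle mean in each tissue, over all 16 libraries and 8132 genes with at least 5 CPM in both tissues. The nearest were Ahnak (0.27), Dnajb1 (0.29), Cox19 (0.30), Hsd17b12 (0.32) and Uap1l1 (0.33), where the median over all genes was 0.87. By the same measure Serpinh1 differed by 0.81 from its own vehicle means. The 5 genes were chosen by this likeness, so their fold changes describe the choice. In liver their log2 fold changes were −1.08 to −1.03, and in fat −0.24 to 0.04. Ahnak encodes a giant scaffold protein and Dnajb1 a cytosolic HSP40 cochaperone. No collagen chain was among these 5, and the fibrillar chains had lower values in fat, where Serpinh1 did not.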

How the data were processed

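Per the labels' protocols, libraries were made from poly(A) RNA of liver and fat. The submitters' processing notes name fastp 0.18.0, Bowtie2 2.2.8, HISAT2, StringTie 1.3.1, RSEM and the build mm39, with no role or order. Annotation release, strand and duplicate handling are not given in the sources used here. The authors deposited a count and an FPKM per gene and library, per the file headers. The deposited counts are whole numbers, but in 1 to 31 genes per library a count of 0 stands beside an FPKM above 0, so they may be rounded estimates, and reads shared by paralogs may have been split. Of 22322 identifiers, 22267 had a symbol in the reference names, and 0 columns were left unmapped.

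Groups follow the sample titles. Liver and fat had separate quasi-likelihood fits (R 4.3.3, edgeR 4.0.16, TMM after filterByExpr, two-sided). P-values were adjusted by Benjamini-Hochberg over all genes tested, and called means adjusted p under 0.05. The contrast between tissues and the vehicle comparison used 1 fit of all 16 libraries, taken as independent, although the labels do not say whether liver and fat share animals or that libraries are separate animals, so p-values measure the spread between these libraries. SE is the absolute log2 fold change over the square root of F. CPM is counts over the TMM-scaled library size. Ratios used scipy 1.17.1. FPKM was scaled by the authors in each library, so levels set across tissues carry that scaling. The scripts were tested on simulated data.

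Replicates were compared by chi-square per degree of freedom, at least 29.7 (liver) and 50.5 (fat), and each library is its own replicate. Named genes were the 10 members, called genes of the pathway list, collagen chains, ER folding genes, the 5 genes most like Serpinh1 and cell type markers. Sparc, Creb3l1, P3h2, Tll1 and Pcolce2 in fat, and Creb3l1 and Pcolce2 in liver, were chosen after their values were seen. Members and lists were chosen with earlier results of these data known. Alternatives were DESeq2 1.42.0, its size factors, library size alone, other filters, the replicate block, 1 joint fit, limma 3.58.1 on log2 FPKM plus 1 or 0.1, and leaving out each library.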

Additional observations from a re-analysis of the deposited data

How the results depend on the processing

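The count of 5 genes called in liver was 3 with the replicate number as a block and 2 to 6 when 1 library was left out. Under limma on FPKM it was 3 with a pseudocount of 1 and 3 with 0.1. There limma tested 8 of the 9 genes, and Plod2 was not tested. Under DESeq2, its size factors, library size alone, other filters and the joint fit the count stayed within 1.5 times. In fat the count of 0 became 2 under DESeq2 and 2 in the joint fit, and was 0 to 0 with 1 library left out. In the contrast between tissues it became 1 under DESeq2 and was 0 to 1 with 1 library left out. Under the block Plod2 and Pcolce were not called in liver (edgeR adjusted p 0.0578 and 0.0666), and the block changed no other call of these genes. Plod2 was also not called in the joint fit (0.0546), and Pcolce with library size alone (0.0557) or limma (0.0541 and 0.0561). Same-numbered libraries' deviations from their group means correlated by −0.16 to 0.06 in liver and −0.57 to 0.11 in fat. The labels state no pairing of these libraries, and correlations over so few libraries cannot show whether they are paired. Signs turned only for small, uncalled differences: Serpinh1 in fat (0.0577 with library size alone, 0.0032 with no filter, 0.0406 and 0.0407 under limma with a pseudocount of 1 and 0.1, −0.0778 to 0.15 with 1 library left out), Plod3 in liver (−0.0041 to 0.11 with 1 library left out), P4ha2 in the contrast (−0.0299 to 0.18) and the P4hb to Hspa5 ratio in fat (−0.0765 to 0.48). The cause was not tested. Of the liver pathway genes, 10 instead of 4 were called without halofuginone replicate 1. Plod2 in liver rests on 3 to 41 counts, which limits its precision, and 3 against 3 libraries limit fat.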
